A study of Mus musculus with 6 samples.

Results

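Cytosolic ribosomal proteins are the protein components of the ribosomes that translate mRNA in the cytoplasm. Their genes were taken by symbol from the deposited table: all Rpl and Rps genes whose symbol ends in a number with at most a short suffix, together with Rplp0, Rplp1, Rplp2 and Rpsa, and without the S6 kinases and the named pseudogenes. This gave 77 of the 38896 genes in the table, 46 of the large subunit and 31 of the small subunit. Together they held 145 of the 120299 transcript rows, 45 of the genes had 1 row, and Rps19 had the most, 9. All 77 were matched to a gene of the mouse build GRCm38.p6 in RefSeq, where they lay on 19 chromosomes, and all 77 passed the filter on low counts, as did 19869 genes in all.

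RNA was measured in 6 cultures of primary fibroblasts grown out of the distal colon of 3 mice, numbered 1716, 1717 and 1718. The mice were 6 weeks old and the cells had been cultured for 2 passages. The study kept cultures for 24 h in inflammatory or in control conditioned medium, and each mouse gave 1 culture to the DSS group (n = 3) and 1 to the Ctrl group (n = 3). The labels write DSS and Ctrl in the field for genotype and the series text speaks of conditioned media, so that DSS was assumed here to mean the inflammatory and Ctrl the control medium. No strain, allele or recipe for the media is given in the sources used here. DSS commonly stands for dextran sulfate sodium, a compound that causes colitis in mice. The question put to the ribosomal protein genes was whether their mRNAs differed between fibroblasts in the inflammatory and in the control medium.

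Each ribosome holds a single copy of most of its proteins, so their genes are transcribed at high and matched rates, and surplus free protein is degraded. Their mRNAs typically begin with a C followed by a run of pyrimidines, the 5′ terminal oligopyrimidine or TOP start, through which translation of the whole family is controlled by mTORC1 and the RNA-binding protein Larp1. This control acts mainly on the use of the mRNAs by ribosomes, which a count of total RNA does not record.

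The start of the gene is therefore shown for members on which the results turn. The 30 bases run 5′ to 3′ on the gene's strand, 15 before and 15 from the RefSeq start onwards, in GRCm38.p6, and capitals mark each stretch of a C followed by at least 4 pyrimidines. Rps26, Rpl13a and Rpl10 were among the clearest falls in DSS, Rpl28 and Rpl24 were among those with the highest positive estimates, and Rps6 had the lowest count.
Rps26 (chr10:128626492-128626521, minus strand): gtcgggcaagccgccggatCCTCTTTCgag
Rpl13a (chr7:45128731-45128760, minus strand): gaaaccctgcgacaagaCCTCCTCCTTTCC
Rpl10 (chrX:74270801-74270830, plus strand): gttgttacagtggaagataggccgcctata
Rpl28 (chr7:4792950-4792979, plus strand): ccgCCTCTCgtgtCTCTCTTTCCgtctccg
Rpl24 (chr16:55966260-55966289, plus strand): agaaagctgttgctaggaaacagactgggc
Rps6 (chr4:86857353-86857382, minus strand): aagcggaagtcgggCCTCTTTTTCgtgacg

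Rps26 and Rpl13a, which fell, and Rpl28, with a positive estimate, all carried such a stretch, while Rpl10, which fell, and Rpl24, with a positive estimate, had none in this window. The RefSeq promoter table held 57 of the 77 genes. A stretch within 15 bases of the start was present in 34 of these 57 (59.6%), beside 36.5% of all 27025 genes in the table. The strict form, with the C at the annotated first base followed by 4 pyrimidines, was present in 12 of 57 (21.1%), beside 2.49% of all genes. Of the 9 genes that fell in DSS, 7 were in the table, of which 5 had a stretch and 1 had the strict form. In the full windows of 250 bases before and 50 after the start, CCGGAA on either strand, the core of the sites of ETS-family factors, was found in 29 of 57 (50.9%), beside 15.2% of all genes, and in 4 of the 7. TATAAA, the TATA box, was found in 5 of 57 (8.77%), beside 14.2% of all genes, and in 0 of the 7. These matches are descriptions of letters and were not tested as sites. The starts are those of the annotation and were not measured here, so that a missing stretch does not show that an mRNA lacks a TOP start.

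The libraries held 17293680, 17303371 and 17931239 estimated counts in DSS, against 17734405, 18552425 and 19482938 in Ctrl, and the DSS total was lower than the Ctrl total of the same mouse in all 3 mice. The 63 ribosomal RNA entries took 5.99% to 6.41% of the counts in DSS and 5.07% to 6.08% in Ctrl. The fibroblast markers Col1a1, Col1a2, Col3a1, Dcn, Pdgfra, Thy1 and Vim were all present, with a summed level of 19747 to 24372 CPM (counts scaled to a common library size) in DSS and 36789 to 43506 CPM in Ctrl, and 2 of the 7 rose and 5 fell. The summed level of 5 epithelial markers was 1.52 to 1.95 CPM in DSS and 1.07 to 1.995 CPM in Ctrl, of 5 macrophage and leukocyte markers 199 to 292 CPM in DSS and 201 to 244 CPM in Ctrl, of 3 endothelial markers 4.26 to 8.16 CPM in DSS and 6.64 to 14.9 CPM in Ctrl, and of 3 enteric glial markers 55.1 to 231 CPM in DSS and 76.1 to 244 CPM in Ctrl. None of these markers was at 0 in all libraries. Their part in the results below was not tested, and in bulk RNA fewer cells of a type and less RNA per cell cannot be told apart.

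Most ribosomal protein mRNAs had slightly lower values in DSS, and 9 of the 77 (11.7%) fell past the paired test described below while none rose, beside 12.7% and 12.3% of all genes. Without the pairing by mouse, none of the 77 passed in either direction. The large subunit genes took 0.840%, 0.950% and 0.995% of the library counts in the DSS cultures of mice 1716, 1717 and 1718, against 0.910%, 0.970% and 1.02% in the Ctrl cultures of the same mice. The small subunit genes took 0.554%, 0.624% and 0.656% in DSS, against 0.605%, 0.649% and 0.692% in Ctrl. Within each mouse the DSS culture was the lower one for both subunits, although the groups overlapped, because mouse 1716 was lowest and mouse 1718 highest in both media. The mean share of all 77 genes was 1.54% ± 0.132 in DSS and 1.62% ± 0.0985 in Ctrl (SD, n = 3 each). With the ribosomal RNA entries left out of the totals, the DSS minus Ctrl difference was -0.129, -0.0239 and -0.0636 percentage points in mice 1716, 1717 and 1718.

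The small subunit share was relatively lower in DSS than the large subunit share in each mouse. The ratio of summed large to summed small subunit counts, which needs no scaling to the library, was 1.518, 1.523 and 1.516 in the DSS cultures of mice 1716, 1717 and 1718, against 1.504, 1.494 and 1.475 in the Ctrl cultures. All 3 DSS ratios lay above all 3 Ctrl ratios, with a gap of 0.0126 between the groups, and the means were 1.52 ± 0.00324 in DSS and 1.49 ± 0.0149 in Ctrl (SD, n = 3 each). When each of the 77 genes was left out in turn, the ratios stayed apart in 77 of 77 cases, but without Rplp0, the member with the most counts, the gap shrank to 0.000302. Most single genes held a small part of the counts and could move the ratio little, so that the number of cases is weak support. With the counts of 11 named pseudogenes added to their parent genes' subunits, the ratio was 1.457, 1.465 and 1.458 in DSS and 1.441, 1.434 and 1.416 in Ctrl. The ratio is a score over the chosen genes and was given no test.

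**Figure D1:**
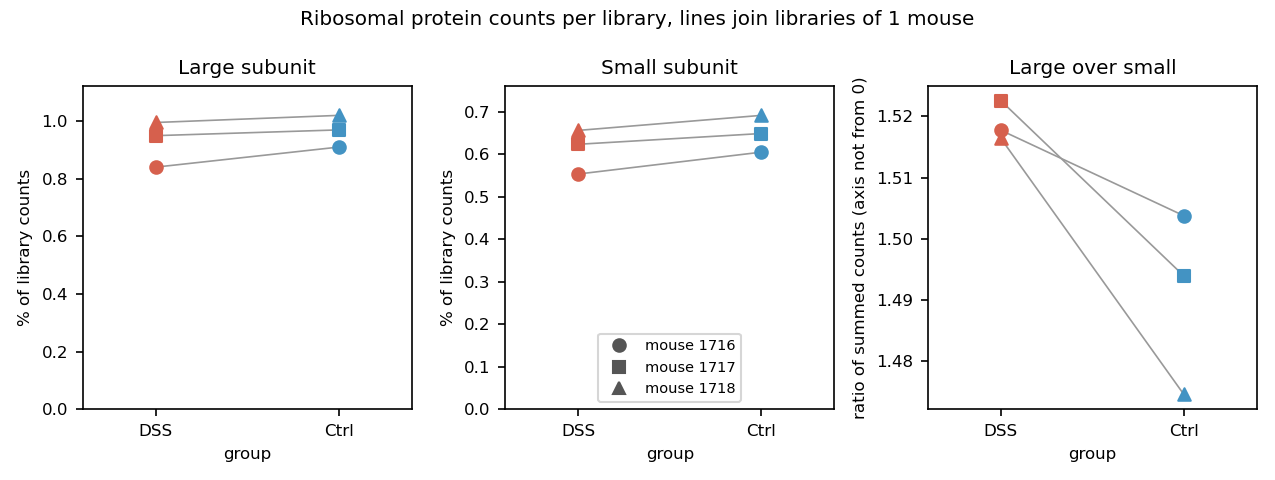
Share of library counts (%) of the large and small subunit genes and the ratio of their summed counts, per library, with DSS left of Ctrl and lines joining the cultures of 1 mouse; the axis of the ratio does not start at 0. In each mouse both shares are lower and the ratio is higher in DSS, and the DSS and Ctrl shares overlap while the ratios (1.516 to 1.523 in DSS, 1.475 to 1.504 in Ctrl) do not.

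Gene by gene, DSS was compared with Ctrl by edgeR's quasi-likelihood test on counts summed per gene, with the mouse as a block and Benjamini-Hochberg adjustment over all 19869 genes, and a gene was called at an adjusted p under 0.05. Of all genes, 12.3% rose and 12.7% fell in DSS by this rule. Of the ribosomal protein genes, 9 fell (11.7%) and 0 rose. The share that fell was thus near the background, and the share that rose was below it. In the large subunit 3 of 46 genes fell (6.52%), Rpl10, Rpl13a and Rpl6, and in the small subunit 6 of 31 fell (19.4%), among them Rps26, Rps29, Rps18, Rps13 and Rps12. At an unadjusted p under 0.05, edgeR placed 2 of the 77 genes higher and 22 lower, beside 18.2% and 18.9% of all genes. The fits by DESeq2 and limma-voom with the mouse in the model also placed 0 genes higher, beside 7.41% and 12.4% of all genes, and placed 4 and 13 lower, beside 7.91% and 12.8% of all genes. The 4 of DESeq2 included Rps26, Rpl13a and Rpl10, and those of limma-voom were the 9 of edgeR with Rpl27a, Rpl35, Rps16 and Rps2.

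All 9 calls rested on the pairing by mouse. Without the block, edgeR called 0 of the 77 genes in either direction, beside 7.37% of all genes higher and 5.91% lower, and at an unadjusted p under 0.05 it placed 0 higher and 5 lower, beside 14.8% and 13.8% of all genes. Within a medium, the shares above differed more between mice than they differed between media within a mouse.

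Direction was more uniform than the calls. The estimated log2 fold change, DSS over Ctrl, was below 0 for 64 of the 77 genes (83.1%), 37 of the large and 27 of the small subunit, beside 48.7% of all genes. Normalized levels were lower in DSS in all 3 mice for 49 of 77 genes (63.6%), beside 28.5% of all genes, and higher in all 3 mice for 4, Rpl24, Rpl28, Rps15 and Rps20, beside 28.4% of all genes. Scaled by library totals alone, 45 of 77 genes were lower in all 3 mice, beside 26.6% of all genes, and edgeR then placed 7 lower and 0 higher, beside 11.6% and 12.8% of all genes. Ribosomal protein genes share their libraries and are not independent of one another, so that these counts describe the genes and were given no test. Read without the pairing, all 3 DSS libraries lay below all 3 Ctrl libraries for 8 genes (10.4%), beside 16.5% of all genes, and above for 0, beside 17.7% of all genes. Among the 8 were Rpl11, Rpl13a, Rpl27a, Rpl41, Rpl6, Rps25 and Rps29.

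The sizes were small. The median log2 fold change was -0.08 for the large subunit and -0.11 for the small subunit, beside 0.01 for all genes, and under the scalings tried it stayed between -0.09 and -0.06 for the large and between -0.11 and -0.09 for the small subunit. Mouse by mouse, in the order 1716, 1717 and 1718, the median was -0.11, -0.02 and -0.07 for the large subunit and -0.17, -0.06 and -0.13 for the small subunit. Mouse 1717 thus showed the smallest difference and mouse 1716 the largest in both subunits. The values of single genes spanned -0.35 to 0.16, beside -5.83 to 8.52 for all genes. No ribosomal protein gene exceeded 0.5 in absolute log2 fold change, a size that 3771 of all 19869 genes exceeded. The 95% confidence interval lay within ±0.5 for 76 of the 77 genes, all except Rps6, so that for these 76 a larger change in either direction was outside the interval. These intervals are from the fit with the block, where the median SE was 0.06 on the log2 scale beside 0.11 for all genes. Without the block the SE was larger, for example 0.114 for Rps26 and 0.109 for Rpl10. The change was unrelated to the level in rank (Spearman's rho -0.0143 over the 77 genes, which share their libraries).

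**Figure D2:**
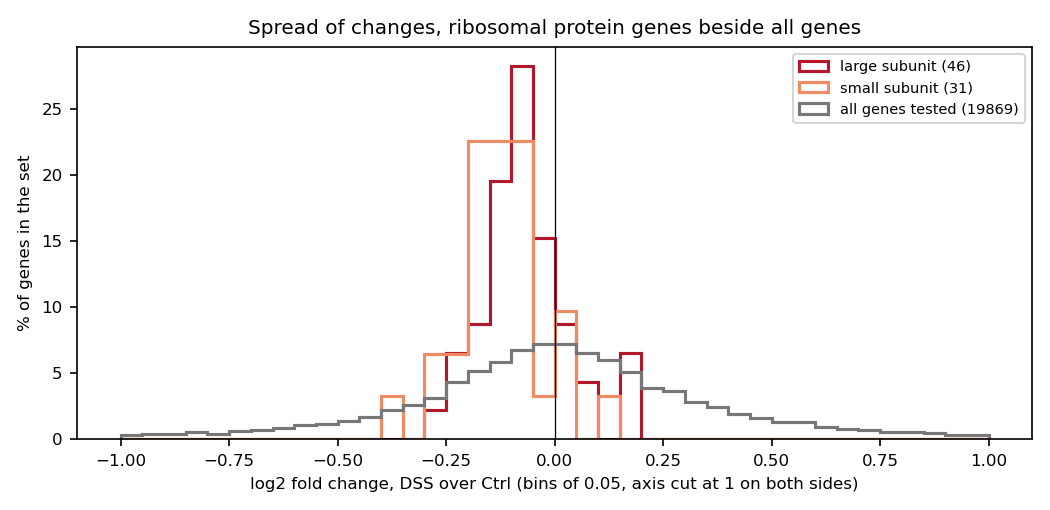
Distribution of the log2 fold change, DSS over Ctrl, for the large subunit genes, the small subunit genes and all genes tested, as the percentage of each set in bins of 0.05. Ribosomal protein genes sit in a narrow band with medians of -0.08 and -0.11, while all genes spread widely around 0.01, and those beyond 1 in either direction are not drawn.

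**Figure D3:**
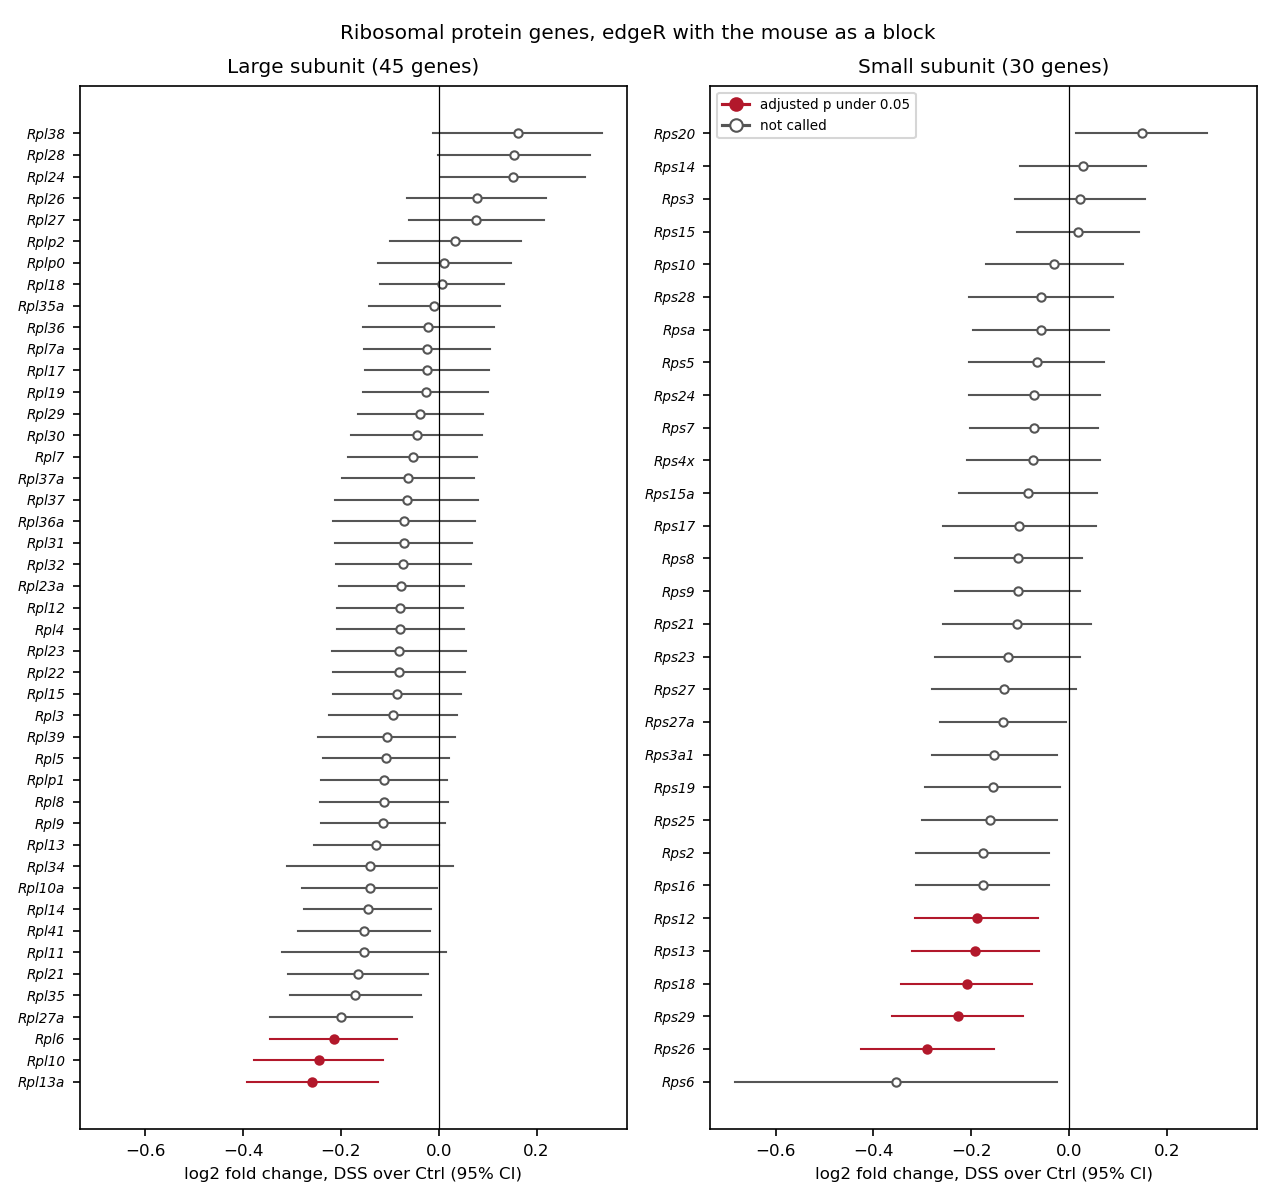
Log2 fold change, DSS over Ctrl, of 75 of the 77 ribosomal protein genes with its 95% confidence interval from edgeR with the mouse as a block, ordered by value within each subunit. The 8 filled red points passed the adjusted threshold and all lie below 0, and 12 open points lie above 0.

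The make-up of the family was described apart from its total. Each gene was expressed as a percentage of the summed counts of the 77 genes in its library, which removes the scaling to the library and most of the difference between mice. By this share, all 3 DSS libraries lay above all 3 Ctrl libraries for 15 genes (19.5%) and below them for 21 (27.3%), leaving 41 that overlapped. Normalized levels of all genes were above in 17.7% and below in 16.5%, on a scale that keeps the differences between mice, so that the percentages are not directly comparable. In the large subunit 11 of 46 were above and 9 below, and in the small subunit 4 of 31 were above and 12 below. Among the 77 mitochondrial ribosomal protein genes, taken in the same way as shares of their own sum, 5 were above and 13 below. Because the shares of a family add up to the whole, a lower share of some genes raises that of others, and no test was made.

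Rps20, a protein of the subunit head, took 1.56%, 1.62% and 1.62% of the family's counts in the DSS cultures of mice 1716, 1717 and 1718, against 1.35%, 1.36% and 1.37% in the Ctrl cultures. Rpl24 took 0.878%, 0.869% and 0.856% in DSS, against 0.790%, 0.713% and 0.707% in Ctrl. The groups did not overlap in either gene, and in Rpl24 the Ctrl culture of mouse 1716 was the highest of its group and nearest to DSS. In the other direction, Rps26 took 0.753%, 0.792% and 0.830% in DSS, against 0.898%, 0.914% and 0.921% in Ctrl, and Rpl13a took 1.45%, 1.44% and 1.48% in DSS, against 1.63%, 1.59% and 1.69% in Ctrl. Rplp0 took 4.93%, 5.10% and 5.06% in DSS, against 4.59%, 4.79% and 4.72% in Ctrl, so that its share of the family was higher in DSS although its normalized level was not.

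Among the small subunit genes, Rps26 had the clearest fall. It encodes a protein at the mRNA exit channel, which contacts mRNA just upstream of the start codon, and the gene lies on chromosome 10 (128624529 to 128626506). Its level was 103, 127 and 135 CPM in the DSS cultures of mice 1716, 1717 and 1718, against 134, 150 and 160 CPM in the Ctrl cultures. Every mouse was lower in DSS, and the groups met only where the highest DSS library touched the lowest Ctrl library. The log2 fold change was -0.29 ± 0.06 (SE), with edgeR adjusted p = 0.0102 with the block and 0.151 without it. Rps26 stayed past the threshold with each mouse left out in turn, with adjusted p of 0.0227 to 0.0453, and was the only one of the 9 that did so.

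Rps29, a small zinc-binding protein of the subunit head (chromosome 12, 69157722 to 69159186), had 87.4, 96.8 and 95.01 CPM in DSS, against 104, 107 and 116 CPM in Ctrl. Its groups did not overlap, and its log2 fold change was -0.23 ± 0.06 (SE; edgeR adjusted p = 0.0251 with the block, 0.0823 without, and 0.0507 and 0.147 without mouse 1716 and mouse 1718).

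Rps18, Rps13 and Rps12 overlapped between groups but were lower in DSS in every mouse. Rps18, a protein of the head near the tRNA sites, had 145, 174 and 181 CPM in DSS, against 174, 191 and 213 CPM in Ctrl (log2 fold change -0.21 ± 0.06, SE; edgeR adjusted p = 0.0346 with the block, 0.26 without). Rps13, a protein at the interface to the large subunit, had 72.5, 78.6 and 86.6 CPM in DSS, against 85.5, 90.3 and 95.01 CPM in Ctrl (-0.19 ± 0.06, SE; edgeR adjusted p = 0.0437 with the block, 0.189 without). Rps12, a protein of the head, had 197, 231 and 231 CPM in DSS, against 228, 261 and 262 CPM in Ctrl (-0.19 ± 0.05, SE; edgeR adjusted p = 0.041 with the block, 0.234 without). For each of these genes the Ctrl library of mouse 1716 was level with or below at least 1 DSS library of another mouse. Leaving out any 1 of the 3 mice ended each of these 3 calls, with adjusted p between 0.0604 and 0.158, and scaling by library totals or testing without the low-count filter ended the calls of Rps12 and Rps13, with adjusted p of 0.0564 to 0.0752.

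In the large subunit, Rpl13a fell most. Besides its place in the ribosome, its protein is known from human monocytic cells, where interferon gamma leads to its release from the ribosome into a complex that silences inflammatory mRNAs. The gene lies on chromosome 7 (45125563 to 45128745). It had 199, 230 and 240 CPM in DSS, against 244, 261 and 294 CPM in Ctrl. The groups did not overlap, and the log2 fold change was -0.26 ± 0.06 (SE; edgeR adjusted p = 0.0156 with the block, 0.141 without, and 0.094 without mouse 1718).

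Rpl10 encodes the protein that is added last to the large subunit, close to the peptidyl transferase centre, and lies on chromosome X (74270816 to 74273135). It had 251, 300.5 and 313 CPM in DSS, against 307, 347 and 370 CPM in Ctrl. The groups overlapped by the DSS culture of mouse 1718 alone, and every mouse was lower in DSS. The log2 fold change was -0.25 ± 0.06 (SE; edgeR adjusted p = 0.0174 with the block, 0.194 without, 0.0554 without mouse 1717 and 0.0846 without mouse 1718). Rpl6, a protein of the solvent side of the large subunit (chromosome 5, 121204501 to 121209241), had 249, 280 and 294 CPM in DSS, against 298, 316 and 341 CPM in Ctrl. Its groups did not overlap, with a log2 fold change of -0.22 ± 0.06 (SE; edgeR adjusted p = 0.0285 with the block, 0.161 without, and 0.0566 to 0.122 with 1 mouse left out). The next gene by adjusted p, Rpl27a, had 165 ± 16.0 CPM in DSS and 189 ± 12.3 CPM in Ctrl (SD, n = 3 each) and stood just outside the threshold (edgeR adjusted p = 0.0528).

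**Figure D4:**
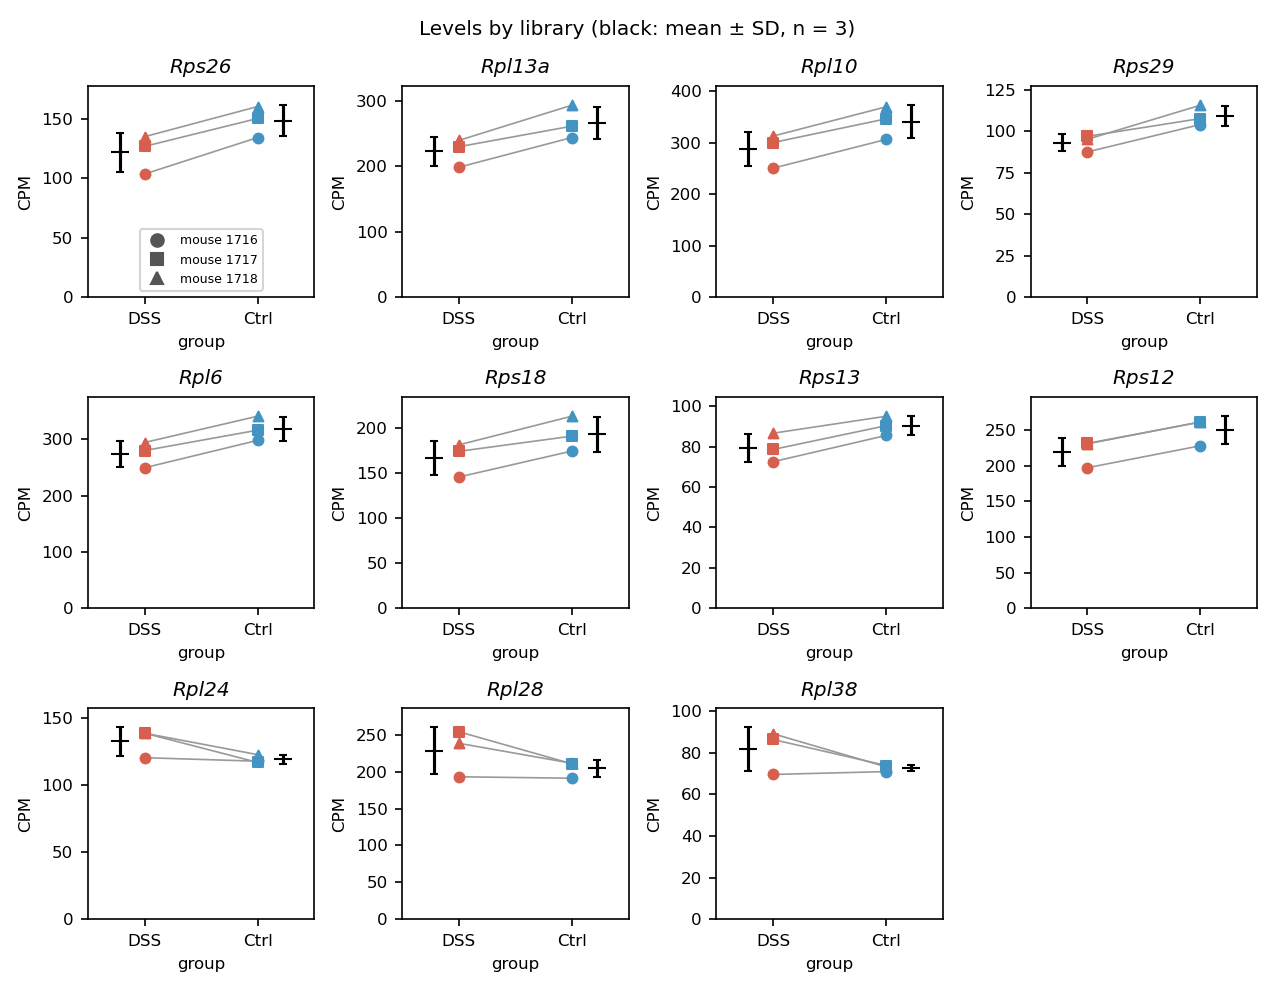
Normalized level (CPM) by library of 8 of the 9 genes that fell and of Rpl24, Rpl28 and Rpl38, with DSS left of Ctrl, lines joining the cultures of 1 mouse, and black bars for the mean ± SD (n = 3). All 24 lines of the 8 genes go up from DSS to Ctrl, whereas in Rpl24, Rpl28 and Rpl38 mice 1717 and 1718 are higher in DSS and mouse 1716 is nearly level.

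A small set of large subunit genes pointed the other way without passing the test. Rpl38, known from mouse embryos with tail and skeletal defects in which translation of Hox mRNAs is altered, lies on chromosome 11 (114667818 to 114672333). It had 69.6, 86.4 and 89.2 CPM in the DSS cultures of mice 1716, 1717 and 1718, against 70.9, 73.9 and 73.2 CPM in Ctrl. Mice 1717 and 1718 were higher in DSS and mouse 1716 was slightly lower, for a log2 fold change of 0.16 ± 0.07 (SE; edgeR adjusted p = 0.159). Rpl28 (chromosome 7, 4792965 to 4794547) had 193, 254 and 239 CPM in DSS, against 191, 211 and 212 CPM in Ctrl, with a log2 fold change of 0.15 ± 0.07 (SE; edgeR adjusted p = 0.14). Rpl24, whose protein forms a bridge to the small subunit (chromosome 16, 55966275 to 55971437), had 121, 139 and 139 CPM in DSS, against 118, 117 and 123 CPM in Ctrl, with a log2 fold change of 0.15 ± 0.06 (SE; edgeR adjusted p = 0.124). In all of them the DSS culture of mouse 1716 stood apart from the other DSS cultures on the low side. Without that mouse each passed the threshold. Log2 fold changes were then 0.26, 0.22 and 0.21 and edgeR adjusted p 0.0233, 0.0389 and 0.0457 for Rpl38, Rpl28 and Rpl24. However, these genes were named for their high estimates, and the same culture held the lowest share of both subunits among all libraries. Passing without that mouse is therefore no separate evidence that these genes rose.

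In the small subunit Rps20 was the member with the highest estimate. It had 214, 259 and 264 CPM in DSS, against 202, 223 and 238 CPM in Ctrl. It was higher in DSS in every mouse with overlapping groups, and its log2 fold change was 0.15 ± 0.06 (SE; edgeR adjusted p = 0.103). The next estimates above 0 were 0.08 for both Rpl26 and Rpl27, with edgeR adjusted p of 0.406 and 0.396. The remaining 7 estimates above 0, among them those of Rplp2, Rps14, Rps3, Rps15, Rplp0 and Rpl18, were nearer to 0.

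The stalk of the large subunit, made of Rplp0, Rplp1 and Rplp2, recruits the translation factors that split GTP. Rplp0, a common reference gene in PCR assays, had 677, 815 and 821 CPM in DSS, against 686, 787 and 821 CPM in Ctrl. The groups coincided, with a log2 fold change of 0.01 ± 0.06 (SE; 95% interval -0.12 to 0.15; edgeR adjusted p = 0.914). Rplp1 had 347 ± 29.1 CPM in DSS and 375 ± 29.1 CPM in Ctrl, and Rplp2 had 183 ± 21.2 CPM in DSS and 178 ± 14.2 CPM in Ctrl (SD, n = 3 each). Neither passed the test, with log2 fold changes of -0.11 and 0.03 and edgeR adjusted p of 0.19 and 0.719. Rplp0 therefore differed from Rps26 and Rpl13a in that its interval held 0 while theirs did not, but the difference between genes was not tested.

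Rpl5 and Rpl11 form, with the 5S ribosomal RNA, the particle that binds Mdm2 and stabilises p53 when ribosome assembly is disturbed. Rpl11 had 96.1, 115 and 117 CPM in DSS, against 121, 118 and 124 CPM in Ctrl, without overlap. The DSS culture of mouse 1716 was far lower than the rest, and the other DSS cultures lay just below the lowest Ctrl culture. Its log2 fold change was -0.15 ± 0.07 (SE; edgeR adjusted p = 0.166). Rpl5 had 273, 311 and 309 CPM in DSS, against 294, 328 and 340 CPM in Ctrl, with a log2 fold change of -0.11 and edgeR adjusted p = 0.206. Neither gene passed the test, although both were lower in DSS in every mouse.

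Other well known members had values within the spread between mice. Rpl3, near the peptidyl transferase centre, and Rpl4, which lines the exit tunnel, had log2 fold changes of -0.09 and -0.08 (edgeR adjusted p of 0.277 and 0.35). Rpl22, which mice can live without and whose paralog Rpl22l1 is described further on, had 64.6, 71.5 and 78.1 CPM in DSS, against 71.7, 75.9 and 78.6 CPM in Ctrl, with a log2 fold change of -0.08 and edgeR adjusted p = 0.354. Rpsa, which is also known as a laminin receptor precursor, had 435, 500 and 488 CPM in DSS, against 441, 504 and 537 CPM in Ctrl, with a log2 fold change of -0.06 and edgeR adjusted p = 0.54. All of these were lower in DSS in each mouse, by amounts that left the groups overlapping.

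Rps3, which is known in human cells to bind the NF-kappaB subunit p65 outside the ribosome, had 277, 308 and 297 CPM in DSS, against 266, 298 and 305 CPM in Ctrl. The mice disagreed in direction, and the log2 fold change was 0.02 with a 95% interval of -0.11 to 0.16 (edgeR adjusted p = 0.81). Rps19, the gene most often mutated in human Diamond-Blackfan anaemia, had 154, 191 and 194 CPM in DSS, against 182, 202 and 214 CPM in Ctrl. It was lower in DSS in every mouse, with a log2 fold change of -0.16 that did not pass the test (edgeR adjusted p = 0.0969). Rps27a, made as a fusion with ubiquitin, and the X-linked Rps4x had log2 fold changes of -0.13 and -0.07 and edgeR adjusted p of 0.121 and 0.415.

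Rps6, the substrate of the S6 kinases downstream of mTORC1, could not be read from its own row. It had 5.81, 6.35 and 8.30 CPM in DSS, against 6.27, 7.22 and 13.3 CPM in Ctrl, with a log2 fold change of -0.35 ± 0.14 (SE; edgeR adjusted p = 0.111). The pseudogene Rps6-ps4 is identical to Rps6 over 750 bases, and the estimated counts gave it 97.1% of what both held, a mean of 4747 counts against 141 for Rps6 itself. The sum of Rps6 and Rps6-ps4 was 236, 259 and 268 CPM in DSS, against 268, 285 and 308 CPM in Ctrl. Every mouse was lower in DSS, with a log2 fold change of -0.17 ± 0.05 (SE; edgeR adjusted p = 0.0581). The sum stood just outside the threshold, below the small subunit median of -0.11 and near that subunit's lower quartile of -0.18.

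Near-copies of at least 95% identity over at least 150 bases were found for 27 members, in 37 pairs, and only 4 of the copies took more than 5% of the counts of their pair. Besides Rps6-ps4 these were BC004004 beside Rpl21 (19.9%), Rpl37rt beside Rpl37 (7.87%) and Gm14853 beside Rpl7a (7.28%), so that the values of Rps6, Rpl21, Rpl37 and Rpl7a are uncertain. None of these was among the 9 that fell. Only genes listed in the deposited table were searched, so that copies missing from it were not looked for. Kallisto divides reads among transcripts by likelihood, and the 124 transcript rows of these genes that passed the filter were also tested singly by edgeR with the block: 0 of them and 0 of all 48402 rows passed the adjusted threshold, while 20 of the 124 and 5952 of all rows had an unadjusted p under 0.05. With only curated RefSeq rows kept, edgeR called 1 of the 77 genes, Rps26, lower (adjusted p = 0.0488) and 0 higher, beside 6.56% lower and 6.77% higher of all 14984 genes tested.

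Proteins of the ribosome whose genes have other kinds of names stood outside the symbol rule. Fau, which encodes the small subunit protein eS30 fused to a ubiquitin-like protein, fell in DSS more clearly than any of the 77 genes. It had 107, 124 and 126 CPM in DSS, against 141, 149 and 160 CPM in Ctrl. The groups did not overlap, and the log2 fold change was -0.34 ± 0.06 (SE; edgeR adjusted p = 0.0048 with the block and 0.042 without it). Rack1, a scaffold protein on the small subunit, had 428 ± 47.9 CPM in DSS and 470 ± 48.9 CPM in Ctrl (SD, n = 3 each; edgeR adjusted p = 0.127).

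Fau and Rack1 were counted in a list of 27 translation factors and other genes with a TOP start, of which 2 rose and 4 fell with the block, and 2 rose and 3 fell without it, beside 12.3% higher and 12.7% lower of all genes with the block and 7.37% and 5.91% without it. The median log2 fold change was -0.09. The genes with the smallest p in that list are not translation factors: Tmem97, a sterol-related membrane protein, had a log2 fold change of -0.86 (edgeR adjusted p = 0.000495), and Vim, the intermediate filament protein vimentin, of -0.79 (edgeR adjusted p = 0.00342). The main elongation factors Eef1a1 and Eef2 did not pass the test, with log2 fold changes of -0.17 and -0.06 (edgeR adjusted p of 0.0935 and 0.51). Eef1g, another elongation factor subunit, fell (-0.24, edgeR adjusted p = 0.021 with the block and 0.0784 without). Eif4a2, an RNA helicase of translation initiation, rose (0.29, edgeR adjusted p = 0.00981), as did the nucleosome assembly protein gene Nap1l1 (0.33, edgeR adjusted p = 0.00524).

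Among 13 noncoding host genes of small nucleolar RNAs, several of which also have a TOP start, 1 rose and 4 fell with the block, and 1 rose and 0 fell without it, beside 12.3% higher and 12.7% lower of all genes with the block and 7.37% and 5.91% without it. The median log2 fold change was -0.18. Gas5, the best known of them, had 28.9 ± 4.997 CPM in DSS and 37.4 ± 7.08 CPM in Ctrl (SD, n = 3 each; log2 fold change -0.37 ± 0.06, SE; edgeR adjusted p = 0.00417 with the block and 0.188 without it). Snhg12 also fell with the block, with a log2 fold change of -0.58 (edgeR adjusted p = 0.0287, and 0.0554 without it). As in the ribosomal protein genes, these falls were called only where the mouse entered the fit.

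Genes that build ribosomes were set beside the same background of 12.3% higher and 12.7% lower. Of 79 tested genes of ribosome biogenesis, 4 rose and 8 fell, with a median log2 fold change of -0.03, and without the block 2 rose and 2 fell. Imp3, a component of the machinery that processes the 18S precursor, rose (0.60, edgeR adjusted p = 0.00139), and Nop58, a core protein of box C/D particles, fell (-0.48, edgeR adjusted p = 0.00217). Of 16 dedicated chaperones and importers of ribosomal proteins, 1 rose and 2 fell with the block and none was called without it, among them Heatr3, which helps import Rpl5 in human cells (-0.36, edgeR adjusted p = 0.0179), and the importin Ipo5 (0.32, edgeR adjusted p = 0.0191). Of the 6 tested ribosomal protein-like paralogs, 0 rose and 2 fell with the block, Rpl22l1 (-0.36, edgeR adjusted p = 0.00712) and Rpl7l1 (-0.25, edgeR adjusted p = 0.0298), and without the block 0 rose and 0 fell.

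The mitochondrial ribosome served as a comparison from the same cells. Of its 77 protein genes tested, 1 rose and 0 fell with the block, beside 12.3% and 12.7% of all genes, and the median log2 fold change was -0.01. Mrps9 was the one that rose (0.32, edgeR adjusted p = 0.0316 with the block and 0.0506 without it), and the gene with the next smallest p, Mrpl34, had a log2 fold change of 0.29 (edgeR adjusted p = 0.0512). The median of the mitochondrial genes thus lay near that of all genes and above that of either cytosolic subunit, but the difference between the sets was not tested. The mitochondrial genes also had fewer counts, with a summed level of 1017 to 1076 CPM in DSS and 1024 to 1077 CPM in Ctrl. The SE was 0.09 for both Mrps9 and Mrpl34, beside a median of 0.06 for the cytosolic genes. Falls as small as the cytosolic ones were thus harder to call, and the numbers of calls are not directly comparable.

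Genes that act on or report from the ribosome were read against the same shares of all genes, 12.3% higher and 12.7% lower with the block and 7.37% and 5.91% without it. Of 22 genes of mTOR signalling and TOP control, 4 rose and 6 fell with the block and 0 rose and 3 fell without it, with a median of -0.02. The inhibitor of mTORC1 Ddit4 fell (-0.55, edgeR adjusted p = 0.000656), as did Mxi1, a repressor that competes with Myc (-0.51, edgeR adjusted p = 0.00106). Of 14 targets and partners of p53, 1 rose and 4 fell with the block and 0 rose and 2 fell without it. Sesn2, a stress-induced inhibitor of mTORC1, had 20.4 ± 0.579 CPM in DSS and 41.3 ± 10.04 CPM in Ctrl (SD, n = 3 each; log2 fold change -0.99, edgeR adjusted p = 0.00111), and Phlda3 fell as well (-0.28, edgeR adjusted p = 0.0117). Of 20 genes of ribosome quality control and dormancy, 0 rose and 4 fell with the block and 0 rose and 2 fell without it, led by Map3k20, the kinase that senses stalled ribosomes (-0.60, edgeR adjusted p = 0.00104), and Habp4, which binds idle ribosomes (-0.42, edgeR adjusted p = 0.0102).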

How the data were processed

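Per the labels' protocols, a Maxwell instrument was used for extraction, ribosomal RNA was removed, and strand-specific libraries were sequenced on a NextSeq 500. The authors deposited estimated counts per RefSeq transcript, 1 column per library, with unequal library totals. Kallisto is named as the tool and GRCm38 and mm10 as builds, per the submitters' processing notes. Its version and settings were not given in the sources used here. Of the values above 0 in the rows of the ribosomal protein genes, 87.1% were not whole at a tolerance of 1e-06.

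Counts were summed per symbol, rounded to whole numbers, kept by filterByExpr of edgeR at a minimum count of 10 and a minimum total of 15, scaled by TMM and tested by edgeR's quasi-likelihood test with group and mouse as terms. The SE is that of the log2 fold change, and CPM values use the TMM factors. The mouse entered the model because the same 3 animals gave both groups. The 2 libraries of a mouse, as deviations from their group means over all genes, correlated with r = 0.33, 0.20 and 0.44 in mice 1716, 1717 and 1718, and with libraries of other mice at no more than 0.03. Deviations within a group add up to 0, so that a positive value within a mouse pushes those with other mice down. The low values between mice are therefore no separate evidence for the pairing. With the mouse as a term, p-values measure how evenly the difference between media held over the cultures of these 3 mice. Without that term they measure the spread between cultures within a medium. Alternatives were the fit without the block, DESeq2, limma-voom, other scalings and filters, curated transcript rows, and leaving out mice or libraries. Named with values were the 6 largest rises and falls with at least 5 CPM, a panel of 16 members, members that passed the test, and in each other list the 2 genes with the smallest p; Rpl27a, Fau, Rack1, Eef1a1, Eef2, Eef1g, Eif4a2 and Nap1l1 were added after their values were seen. The members and lists were chosen with earlier results of these data known. A few genes that the counts include are not reported here by name. Levels per length are not given, so CPM values are compared between groups and not between genes. Near-copies were found with blastn 2.17.0. Fits ran in DESeq2 1.42.0, limma 3.58.1 and edgeR 4.0.16 under R 4.3.3, and only the edgeR fit with the block was tested on simulated data. Summaries and figures used matplotlib 3.10.9, numpy 2.4.6 and pandas 2.3.3 under Python 3.11.15.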

Additional observations from a re-analysis of the deposited data

How the results depend on the processing

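The 29 ribosomal protein genes named with values were recomputed under 20 alternatives. Of 580 values 477 kept their side of the threshold, 99 were no longer past it, 4 came to pass it, and 0 changed sign of a called value. Any change of sign in a value called by neither fit is included in the 477. Without the block, the counts were 1465 higher and 1174 lower over all genes, 0 lower in the large subunit and 0 lower in the small subunit. DESeq2 gave 1473 higher and 1571 lower over all genes and 2 lower in each subunit, where edgeR had 3 and 6. Limma-voom gave 5 lower in the large and 8 in the small subunit. Curated rows alone gave 1015 higher and 983 lower over all genes, 0 lower in the large subunit and 1 in the small. With 1 mouse left out, 1357 to 2304 genes were higher and 1422 to 2375 lower, with 0 to 2 lower and 0 to 3 higher in the large subunit and 1 to 3 lower in the small. With no block and 1 library left out, in the order DSS 1716, 1717, 1718, Ctrl 1716, 1717, 1718, genes higher in DSS numbered 1310, 1104, 1071, 952, 769 and 846 and genes lower 1108, 753, 798, 898, 580 and 648. There were then 0 lower in either subunit and 0 to 1 higher in the large one, Rpl38 without the DSS culture of mouse 1716. The median log2 fold change ran from -0.12 to 0.0074 in the large subunit over these fits, above 0 only without that culture, and from -0.17 to -0.0205 in the small subunit, where it was -0.0469 without the Ctrl culture of mouse 1718. Each of the 9 genes that fell stayed below 0 in all 20 alternatives. The cause of these differences was not tested. Among these genes Rps6 had the fewest counts and the widest interval.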
